A study of Mus musculus with 5 samples.

Results

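The 5 genes described here, Mt1, Mt2, Mtf1, Slc30a1 and Slc39a14, bind, sense or carry zinc. They were chosen by name from 46983 genes in the deposited count files, with their counts in Treg-ablated and control libraries already known, and all 5 were found and passed the filter on low counts that left 14580 genes. The study asked what Treg cells, which restrain other immune cells, do to myeloid cells in a poorly immunogenic breast cancer. Mice of the strain labelled C57/BL6 carried orthotopic EO771 tumours, a mouse mammary carcinoma line. In 2 libraries the Treg cells had been removed by diphtheria toxin, given in 2 doses (each 50 µg per kg), and cells were sorted 4 days later. The other 3 libraries came from untreated control tumours. The allele that makes Treg cells sensitive to the toxin and the age of the mice are not given in the sources used here. Because the controls received no toxin, an effect of the toxin and an effect of Treg loss cannot be told apart.

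Zinc is kept at very low free concentration inside cells. Metallothioneins are small cysteine-rich proteins that hold zinc and copper in clusters. MTF-1, the product of Mtf1, is a transcription factor that binds DNA when zinc is plentiful and drives the metallothionein genes and Slc30a1 through short metal response elements. Slc30a1 encodes ZnT1, the zinc exporter of the plasma membrane, and belongs to the ZnT (SLC30) family that moves zinc out of the cytosol. Slc39a14 encodes ZIP14, one of the ZIP (SLC39) importers, which also carries iron and manganese and is induced in liver during inflammation. Metallothionein genes also respond to glucocorticoids, oxidants and inflammatory cytokines, and macrophages use metallothioneins and zinc transport to withhold zinc from microbes.

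The coding sequences of Mt1 and Mt2 are shown because the counts of both genes rest on telling these paralogs apart. They are from the GENCODE M21 transcripts Mt1-201 and Mt2-201, printed 5′ to 3′ from start to stop codon, with the codons for cysteine, the residue that binds the metal, in capitals.
Mt1: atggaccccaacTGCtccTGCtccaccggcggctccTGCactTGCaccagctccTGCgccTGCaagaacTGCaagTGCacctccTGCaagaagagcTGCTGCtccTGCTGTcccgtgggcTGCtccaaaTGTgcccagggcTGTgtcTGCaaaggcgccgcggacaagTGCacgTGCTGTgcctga
Mt2: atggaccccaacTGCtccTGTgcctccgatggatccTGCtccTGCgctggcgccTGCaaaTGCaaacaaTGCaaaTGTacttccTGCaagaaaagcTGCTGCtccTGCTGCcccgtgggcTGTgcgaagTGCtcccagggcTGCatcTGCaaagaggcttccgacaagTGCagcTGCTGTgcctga
Each has 186 bases and 61 codons before the stop, and 20 of these codons, 32.8%, encode cysteine. The sequences match at 148 of 186 aligned positions (79.6%). The longest run of bases they share, also over the whole transcripts, is 20, far below the read length of 125. No other GENCODE M21 gene shares a run of 40 bases with Mt1. Mt2 shares one with Gm45774 alone, an antisense gene over the same locus that the count files do not list. Counting used no strand option, so reads of Mt2 and of this antisense gene cannot be told apart.

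Both genes lie with Mt4 and Mt3 in a cluster of 43.1 kb on chromosome 8 (GRCm38). Mt2 (ENSMUSG00000031762) occupies chr8:94172618-94173567 on the plus strand in the count files, and Mt1 (ENSMUSG00000031765) chr8:94179089-94180325 on the same strand, with 5.52 kb between them. The windows upstream of Mt1, Mt2 and Slc30a1, whose transcripts were all more abundant after ablation, are printed below. Each is 250 bases long, ends just before the gene start in RefSeq (GRCm38.p6, plus strand), and has matches to the metal response element core in capitals. The core was searched as TGCACNC or TGCGCNC on both strands.
Mt1, chr8:94178839-94179088: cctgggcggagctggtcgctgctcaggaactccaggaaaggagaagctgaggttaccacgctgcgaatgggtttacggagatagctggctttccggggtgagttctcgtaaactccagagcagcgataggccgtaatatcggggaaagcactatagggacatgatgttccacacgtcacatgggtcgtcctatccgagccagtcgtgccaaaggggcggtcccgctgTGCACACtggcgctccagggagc
Mt2, chr8:94172368-94172617: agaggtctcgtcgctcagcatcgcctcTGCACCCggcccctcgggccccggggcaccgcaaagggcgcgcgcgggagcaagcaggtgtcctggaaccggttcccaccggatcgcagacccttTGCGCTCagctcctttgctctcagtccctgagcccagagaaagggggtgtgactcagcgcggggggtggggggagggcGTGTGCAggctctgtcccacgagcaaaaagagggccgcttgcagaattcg
Slc30a1, chr1:191906531-191906780: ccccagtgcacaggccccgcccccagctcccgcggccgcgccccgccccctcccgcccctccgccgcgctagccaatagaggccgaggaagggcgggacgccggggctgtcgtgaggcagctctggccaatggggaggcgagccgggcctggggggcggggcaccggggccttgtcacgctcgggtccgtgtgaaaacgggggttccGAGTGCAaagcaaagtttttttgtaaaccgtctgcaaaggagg
In the full windows of 300 bases, which run 50 bases past the start, Mt2 held 4 matches, Mt1 held 3 and Slc30a1 held 2. Those of Mt2 begin at −223, −128, −50 and 5 from the start. Those of Mt1 begin at −23, 3 and 21, and those of Slc30a1 at −43 and 31. Of 32851 such windows in the mouse RefSeq set, 25.7% held at least 1 match, 7.11% at least 2, 1.97% at least 3 and 0.517% at least 4. The Mtf1 window held 0, and those of Mt3 and Mt4 held 1 each. An antioxidant response core, TGACNNNGC, occurred once each in the windows of Mt2 and Slc30a1, and in 12.4% of all windows. A STAT core, TTCNNNGAA, had 0 matches in the windows of Mt1, Mt2, Mtf1 and Slc30a1, and occurred in 8.3% of all windows. No window was used for Slc39a14. Starts differ between annotations. Of the GENCODE M21 transcripts, Mt1-203 begins 122 bases downstream of the RefSeq start, Mt1-202 152, Mt2-201 46, Mt2-202 242 and Slc30a1-202 475. Bases next to some of these starts therefore lie outside the windows. The number of matches depends on the start used, and windows at other starts were not searched. A match is a string of letters and not a measured binding site. Mt1, Mt2 and Slc30a1 are known targets of MTF-1, so matches in their windows were foreseeable. Their windows were shown with the group difference known. The matches are therefore a description, and a link between MTF-1 and the difference was not tested.

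The labels describe the sorted cells as tumour-associated macrophages (CD45+ CD11B+ Ly6G- F4/80+). The libraries held 13122668 to 20156835 counts. Transcripts of the macrophage markers were low beside those of the fibroblast markers. Per kilobase of exon, the median of 13 macrophage markers was 4.531 to 10.27 CPM (counts per 1000000, on TMM-scaled totals) over the libraries, and that of 12 fibroblast markers 61.53 to 101 CPM. Without division by length, the macrophage markers summed to 273.1 to 512.1 CPM and the fibroblast markers to 19990 to 25360 CPM. Fn1 and Col3a1 gave 80.8% to 84.3% of the fibroblast sum, and which cells made these transcripts was not tested. The 10 epithelial and mammary tumour markers summed to 259.7 to 317.7 CPM, of which Krt18 and Krt8 gave 97.5% to 98.3%. Adgre1, which encodes F4/80, had 5.733 to 9.866 CPM, Itgam (CD11b) 12.22 to 19.01 CPM and Ptprc (CD45) 22.08 to 32.96 CPM, while Ly6g was at most 0.1891 CPM. The zinc genes are therefore described in the libraries labelled as macrophages and are assigned to no cell type. In bulk libraries, fewer cells of a type and less RNA per cell cannot be told apart. The labels do not say whether replicate libraries are from different mice. Errors and p-values therefore cover the spread among the 5 libraries alone, and that spread may be technical.

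Mt2 and Mt1, the metallothioneins found in most tissues, and Slc30a1 were more abundant in both Treg-ablated libraries than in any of the 3 controls. Mtf1 overlapped between the groups, and Slc39a14 was lower in both ablated libraries. Thus 3 of the 5 genes were higher without overlap, as were 26.9% of all genes tested, and 1 of the 5 was lower without overlap, as were 25.6%. These genes were listed with this comparison in view, so their values are a description and were not tested. Errors of group means are SD (n = 2 ablated, n = 3 control), and errors of log2 fold changes are SE from the edgeR fit.

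Mt2 had 78.55 and 61.33 CPM in Treg-ablated replicates 1 and 2, against 27.07, 28.6 and 30.24 CPM in control replicates 1, 2 and 3. Both ablated libraries lay above every control, and the lower of them still had 2.028 times the highest control. The group means were 69.94 ± 12.18 and 28.64 ± 1.581 CPM, a log2 fold change of 1.29 ± 0.104, or 2.45-fold. Of the 14580 genes tested, 200 (1.37%) had a larger log2 fold change.

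Mt1 had 70.92 and 56.42 CPM after ablation and 33.19, 36.41 and 39.92 CPM in the controls. The groups did not overlap, and the difference was smaller than that of Mt2. Means were 63.67 ± 10.25 and 36.51 ± 3.367 CPM, with a log2 fold change of 0.81 ± 0.107 (1.75-fold), which 535 genes (3.67%) exceeded. For both metallothioneins ablated replicate 1 was the higher of its group, and without it the log2 fold changes were 0.63 for Mt1 and 1.10 for Mt2.

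**Figure D1:**
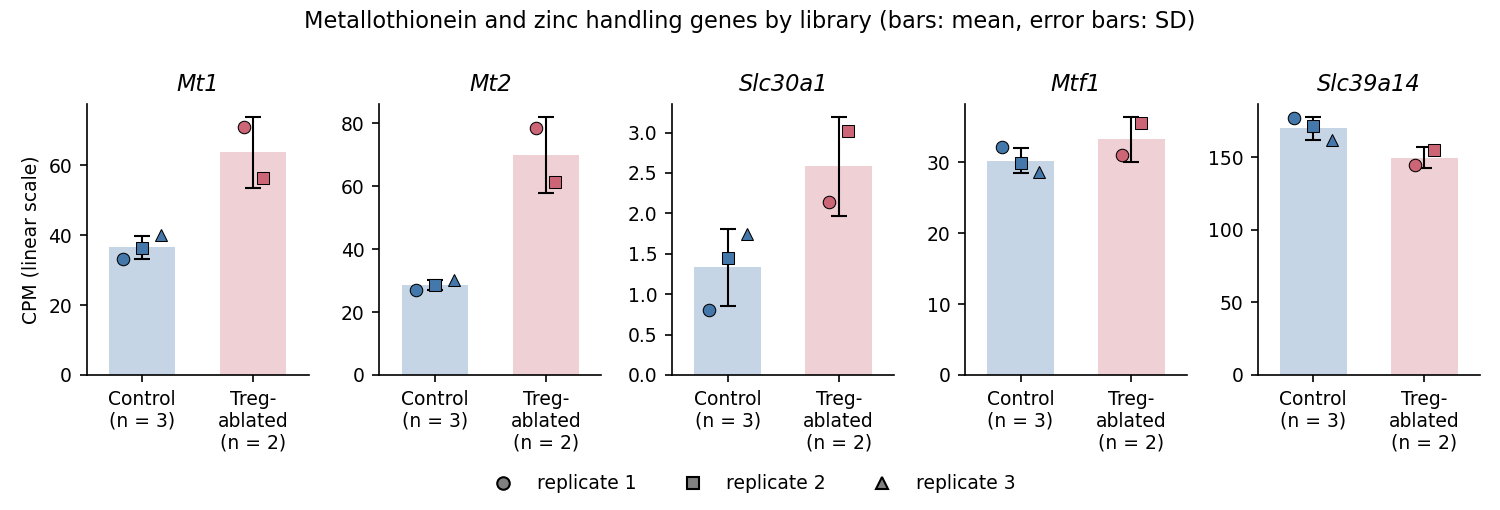
CPM of the 5 genes in each library on linear axes starting at 0. Bars show group means, error bars SD and symbols single libraries; both Treg-ablated libraries lie above all controls for Mt1, Mt2 and Slc30a1, and below them for Slc39a14.

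The balance between the paralogs differed between the groups. Mt2 made up 44.93%, 43.99% and 43.1% of the summed Mt1 and Mt2 counts in control replicates 1, 2 and 3, and 52.55% and 52.08% in ablated replicates 1 and 2. Mt1 was the more abundant in every control, and Mt2 in both ablated libraries. The exact (Clopper-Pearson) 95% intervals reached at most 48.25% in a control and went no lower than 49.57% in an ablated library. They cover counting error only. The interval of ablated replicate 2, from 49.57% to 54.59%, includes equal shares, so Mt2 was not above Mt1 there beyond counting error. The sums behind the shares were 897 to 1298 counts in controls and 1561 to 2371 after ablation. Together the pair had 133.6 ± 22.49 CPM after ablation and 65.14 ± 4.951 CPM in controls.

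**Figure D2:**
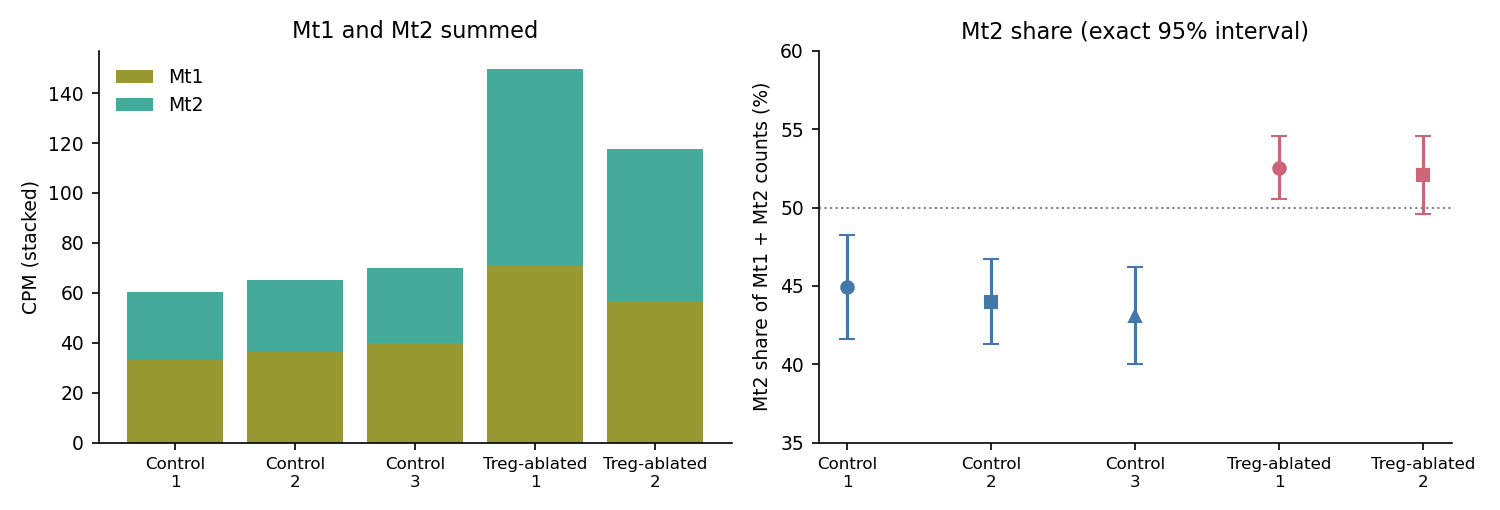
Left, Mt1 and Mt2 stacked in CPM for each library. Right, the Mt2 share of the summed counts in percent with exact 95% binomial intervals on an axis from 35 to 60; the 3 controls sit between 43.1% and 44.93% and both Treg-ablated libraries above 52%.

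The remaining metallothioneins were near or at the limit of detection. Mt3, best known from brain, had 4 counts in ablated replicate 2, 2 counts in control replicate 2 and 0 in the other three libraries. Mt4, a gene of stratified epithelia, had 0 counts in every library, which allows up to 3 counts, or 0.1502 to 0.2263 CPM depending on the library. Within the cluster, a comparison was thus possible for Mt1 and Mt2 only.

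Slc30a1 was a low-count gene. It had 34 and 40 counts after ablation and 12, 29 and 25 counts in the controls, or 2.144 and 3.017 CPM against 0.8062, 1.452 and 1.742 CPM. The lower ablated library exceeded the highest control by a factor of 1.231 only, and the controls themselves were widely spread. Means were 2.58 ± 0.618 and 1.333 ± 0.479 CPM, and the log2 fold change of 0.93 had an SE of 0.31. It was 0.68 without ablated replicate 2, the highest library, and 0.69 without control replicate 1, the lowest. A gene on the opposite strand, 1700034H15Rik, overlaps Slc30a1 but had only 2 counts in all. Slc30a1 (ENSMUSG00000037434) lies at chr1:191906767-191913247 on the plus strand.

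Mtf1, the zinc-sensing regulator, had 31.02 and 35.53 CPM after ablation and 32.11, 29.95 and 28.7 CPM in the controls. Ablated replicate 1 lay below control replicate 1, so the groups overlapped. The log2 fold change was 0.13 ± 0.0911, and 32.9% of all genes tested had a larger one. It was 0.23 without ablated replicate 1 and 0.040 without ablated replicate 2. On the log2 scale, the SD of replicates within groups was 0.104 for Mtf1, close to its difference. For the other genes the log2 fold change and this SD were 0.81 and 0.173 (Mt1), 1.29 and 0.16 (Mt2), 0.93 and 0.515 (Slc30a1), and −0.18 and 0.0691 (Slc39a14). A link between the Mtf1 transcript and the other genes was not tested. Mtf1 (ENSMUSG00000028890, chr4:124802104-124849800, plus strand) overlaps 1110065P20Rik on the opposite strand, which had 713 counts over the 5 libraries, and unstranded counting cannot separate reads of their common stretch.

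Slc39a14, the importer ZIP14 (ENSMUSG00000022094, chr14:70303469-70351425, minus strand), had 144.4 and 154.9 CPM after ablation against 177.1, 171.2 and 161.4 CPM in the controls. Both ablated libraries were lower than every control, by a small margin. Means were 149.7 ± 7.47 and 169.9 ± 7.916 CPM, with a log2 fold change of −0.18 ± 0.0701. With an offset on GC content it was −0.092.

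Levels of different genes can be compared only per length of exon. Per kilobase, Mt1 had 67.6 ± 6.236 CPM and Mt2 51.5 ± 2.844 CPM in controls, in positions 3 and 4 of 26 metallothionein, ZIP and ZnT genes and Mtf1 with counts. Only Slc39a1 (101.9 ± 5.301) and Slc30a4 (69.96 ± 4.34) were higher, and Mt1 did not differ from Slc30a4 beyond their spread. After ablation Mt2, with 125.8 ± 21.91 CPM per kilobase, and Mt1, with 117.9 ± 18.99, were the highest of these genes in both libraries, where Mt2 had 1.076 and 1.056 times the level of Mt1. Slc39a14 was in position 9 in all 5 libraries, with 16.11 ± 0.7504 CPM per kilobase in controls, clear of Slc39a9 above it (21.13 ± 0.6961) and Slc39a13 below (11.66 ± 0.2919). Mtf1 had 3.397 ± 0.1937 and Slc30a1 0.2543 ± 0.0913 CPM per kilobase. Slc30a1 could not be separated from its neighbours Slc39a5 (0.2867 ± 0.1017) and Slc39a4 (0.2269 ± 0.0679).

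**Figure D3:**
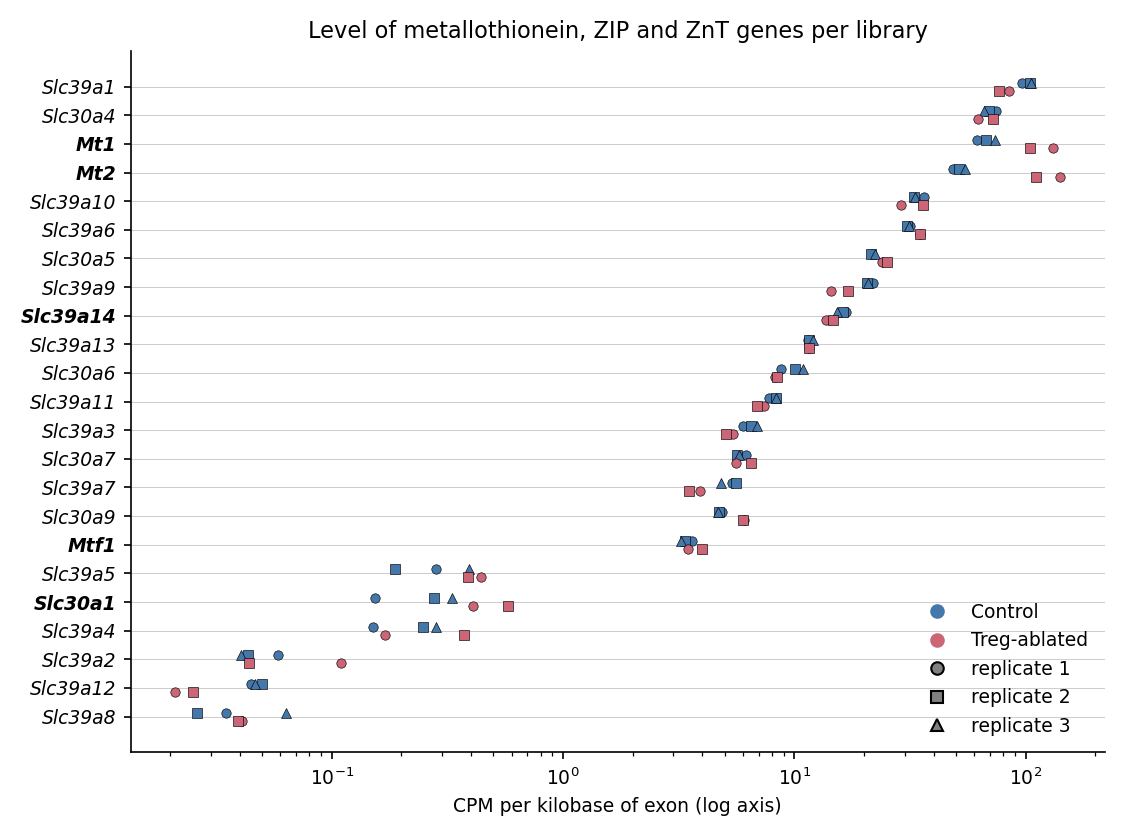
CPM per kilobase of exon, on a log axis, for the metallothionein, ZIP and ZnT genes and Mtf1 with counts in every library, ordered by control mean. Symbols are single libraries, and the 5 genes described are in bold; Mt1 and Mt2 move past Slc39a1 and Slc30a4 in the Treg-ablated libraries.

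The other zinc transporters were tested with edgeR over all genes. They were listed with earlier results of these data known, so the share called is no independent test. The same holds for the gene lists that follow. Of 22 listed, 14 passed the filter on low counts, 1 rose, 4 fell and 9 did not pass at an adjusted p under 0.05. This is 35.7% called, against 25.8% of all genes tested. Their median log2 fold change was −0.07, against −0.0062 over all genes. All 4 that fell are ZIP importers. Slc39a9, an importer of the secretory pathway, had 75.59 and 89.16 CPM after ablation and 114.6, 107.7 and 109.2 CPM in controls (log2 fold change −0.43 ± 0.0816, adjusted p = 0.00486). Slc39a7, which releases zinc from the endoplasmic reticulum, fell by 0.50 ± 0.119 on the log2 scale (adjusted p = 0.0125), and Slc39a1, a plasma membrane importer, by 0.33 ± 0.0744 (adjusted p = 0.0102). Slc39a3 fell by 0.30 ± 0.0967 (adjusted p = 0.0451), a call close to the threshold.

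Slc30a9, a mitochondrial member of the ZnT family, was the one transporter that rose. It had 74.96 and 74.15 CPM after ablation against 60.13, 58.39 and 58.03 CPM in controls (log2 fold change 0.34 ± 0.0661, adjusted p = 0.00509). The abundant exporter of vesicles, Slc30a4, had a log2 fold change of −0.06 ± 0.0822 and did not pass. Nor did Slc39a10, Slc39a6, Slc39a13, Slc39a11, Slc39a5, Slc30a5, Slc30a6 and Slc30a7, with log2 fold changes from −0.24 to 0.58. Slc39a8, Slc39a2, Slc39a4, Slc39a12, Slc30a2 and Slc30a3 were too low to test, and Slc30a8 and Slc30a10 had 0 counts. Without ablated replicate 2, and likewise without control replicate 2, only 2 of these transporters were called, Slc39a1 and Slc39a7 being lost in both. Slc39a3 was lost in both as well, and also without ablated replicate 1 or control replicate 3. It was also lost under DESeq2, under library-size scaling and with the GC offset. With the replicate number as a block, Slc39a1 and Slc39a3 were lost. The GC offset also ended the Slc39a7 call (adjusted p = 0.0522), leaving 2 transporters higher and 2 lower, and scaling by library size alone gave 2 higher and 3 lower. The added higher gene in both was Slc39a6, a ZIP importer (adjusted p = 0.0440 and 0.0461, in that order).

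**Figure D4:**
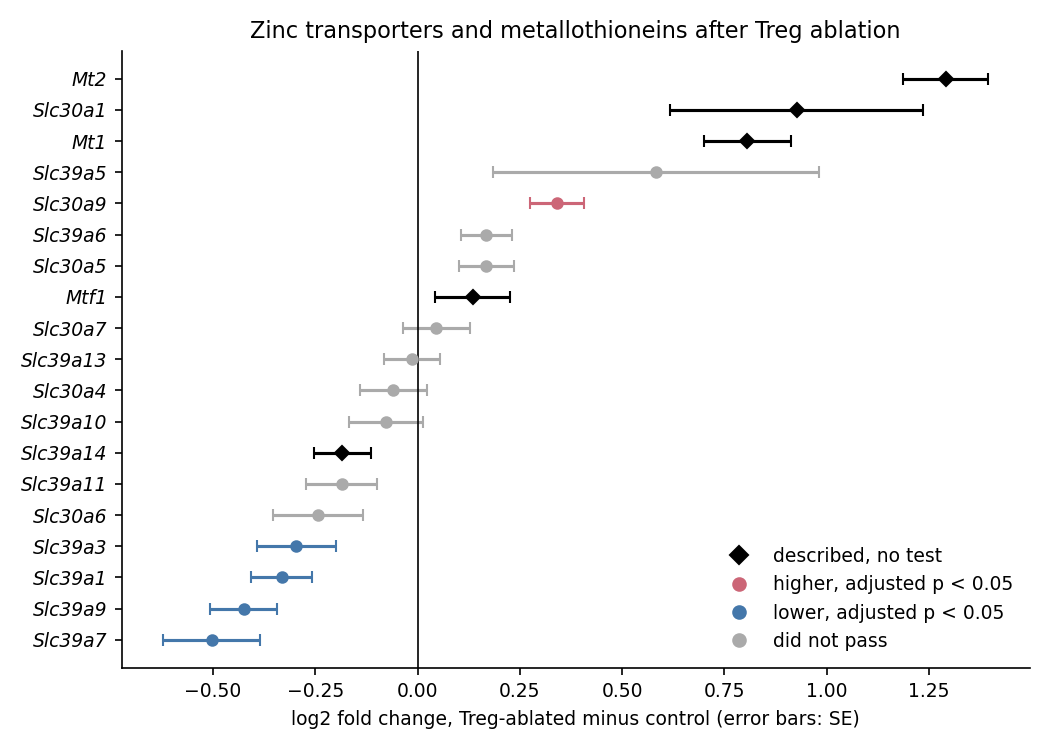
Log2 fold changes, Treg-ablated minus control, with SE for the zinc genes that passed the low-count filter. Black diamonds are the 5 genes described without a test, coloured points the transporters called higher (1) or lower (4), and grey points those that did not pass; Mt2, Slc30a1 and Mt1 have the highest values.

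All 7 other genes reported to respond to MTF-1 were tested, and 1 rose and 6 did not pass. The share called higher, 14.3%, was near the 13.5% of all genes called higher. The median log2 fold change was −0.05. The one that rose was Ndrg1, a stress and hypoxia responsive gene, with 175.6 and 167.8 CPM after ablation against 138.3, 141.8 and 143.6 CPM in controls (log2 fold change 0.28 ± 0.0633, adjusted p = 0.0103). This call ended without ablated replicate 1, without control replicate 2 (adjusted p = 0.0602), and with the replicate number as a block. The other 6 had log2 fold changes between −0.16 and 0.09.

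Genes of other inducers of metallothioneins were counted in the same way, and the lists share some members. In the IL-6 and STAT3 list, 7 of 19 genes rose and 12 did not pass (36.8% called, all higher, against 13.5% of all genes called higher and 25.8% called in either direction), with a median log2 fold change of 0.18. Il6 itself, the cytokine, had 5.107 and 5.431 CPM after ablation against 2.889, 2.804 and 3.414 CPM in controls (log2 fold change 0.80 ± 0.171, adjusted p = 0.00809). Pim1, a kinase gene induced by STAT3, rose 1.38-fold (adjusted p = 0.00292), Bcl3, an IκB family gene, 1.63-fold (adjusted p = 0.0111) and Cebpb, a transcription factor of the acute phase response, 1.55-fold (adjusted p = 0.0113). The 12 genes of this list that did not pass had log2 fold changes from −0.40 (Lifr) to 0.24 (Cebpd). Between these lay Hp (−0.26), Il6st (−0.23), Stat3 (0.14) and Socs3 (0.17). Without control replicate 2, 3 members were called and Il6 did not pass (adjusted p = 0.0525). With the offset on GC content or on gene length, 11 were higher and 1 lower.

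Of 9 glucocorticoid-induced genes tested, 3 rose and 6 did not pass (33.3% called, against 25.8% of all genes in either direction and 13.5% higher), with a median log2 fold change of 0.07. Sgk1, a kinase gene, rose from 68.12, 68.26 and 69.39 CPM to 99.11 and 100.6 CPM (log2 fold change 0.54 ± 0.0639, adjusted p = 0.000521). Klf9, a transcription factor gene, rose 1.45-fold (adjusted p = 0.00266), and Errfi1, an inhibitor of EGF receptor signalling, 1.18-fold (adjusted p = 0.0228). The Errfi1 call ended without any of ablated replicates 1 and 2 and control replicates 1 and 2, and with the GC offset. It also ended with the replicate number as a block (adjusted p = 0.109). The 6 genes that did not pass had log2 fold changes from −0.22 (Ddit4) to 0.24 (Cebpd). Between these lay Per1 (−0.15), Tsc22d3 (−0.09), Dusp1 (0.04) and Fkbp5 (0.07). With the offset on gene length, and with the filter of 1 count in any library, 3 genes of this list were higher and 1 lower.

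Heat shock and oxidant stress genes went both ways, with 2 higher, 3 lower and 7 not passing of 12 tested (41.7% called, median log2 fold change 0.11). Of all genes, 25.8% were called, 13.5% higher and 12.3% lower. Gclm, a subunit of the enzyme that starts glutathione synthesis, rose 1.37-fold (adjusted p = 0.00621) and the chaperone gene Hsp90aa1 1.28-fold (adjusted p = 0.00809). Srxn1, which encodes sulfiredoxin, fell 1.22-fold (adjusted p = 0.0123), and the inducible chaperone gene Hspa1a 1.47-fold (adjusted p = 0.0291). The Hspa1a call ended without ablated replicate 1 or any 1 control, under DESeq2 (adjusted p = 0.1), and with the block or the GC offset, where adjusted p over these ran from 0.0642 to 0.173. The Srxn1 call ended without ablated replicate 1 or control replicate 2, and with the block or the GC offset (adjusted p from 0.051 to 0.141), and the Hsp90aa1 call without the same 2 libraries (adjusted p = 0.0523 and 0.0651). Only 1 of these genes was called without ablated replicate 1 or without control replicate 2, and 3 without control replicate 1. With the GC offset 4 were higher and 1 lower, and with scaling by library size alone 4 higher and 3 lower. Iron handling genes also went both ways, with 2 higher, 4 lower and 11 not passing of 17 tested (35.3% called against the same 25.8%, median log2 fold change −0.0082). Slc25a37, the mitochondrial iron importer, rose 1.34-fold (adjusted p = 0.00228). Aco1, an iron-sensing regulator of translation, fell 1.27-fold (adjusted p = 0.00429), the ferrireductase gene Steap3 1.33-fold (adjusted p = 0.0073) and Slc11a1, a phagosomal metal transporter of macrophages, 1.77-fold (adjusted p = 0.00781). Without control replicate 2, 3 iron genes were called, and Steap3 was not among them (adjusted p = 0.0569).

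The genes nearest to each metallothionein were sought among 10020 genes with a mean log2 CPM of at least 3. The measure was the root mean square difference of log2 CPM over the 5 libraries, after centring each gene on its mean. Nearest to Mt1 were Osr1 (0.0493), Ptma (0.0576), Rps12 (0.0583), Upp1 (0.0651) and Hes1 (0.072). Osr1, a transcription factor gene, had 19.48 and 14.18 CPM after ablation and 8.734, 10.07 and 10.66 CPM in controls. Nearest to Mt2 were the interferon-inducible GTPase gene Ifi47 (0.0901), the transcription factor gene Batf2 (0.0929), Serpina3g (0.129), the growth factor gene Pdgfa (0.13) and Igtp (0.136). Ifi47 had 93.94 and 86.22 CPM after ablation and 38.36, 39.86 and 40.83 CPM in controls. The paralogs were farther from each other, at 0.238, with Mt1 in position 34 from Mt2 and Mt2 in position 551 from Mt1. This distance depends largely on the log2 fold changes of the genes compared, so it is not separate from them. The log2 fold changes of the neighbours ran from 0.68 to 0.84 for Mt1 and from 1.08 to 1.25 for Mt2. Ptma and Rps12 have many pseudogenes, so their counts are uncertain where reads were shared.

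**Figure D5:**
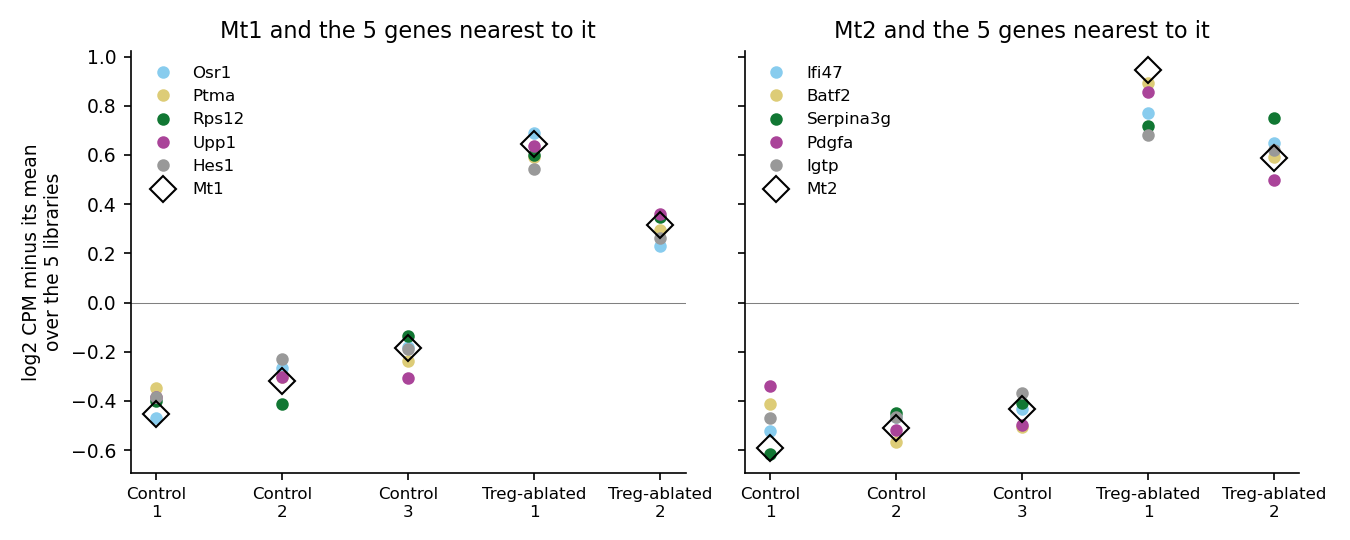
Log2 CPM of Mt1 (left) and Mt2 (right) and of the 5 genes nearest to each, centred on each gene's mean over the 5 libraries. Diamonds are the metallothionein and filled circles the neighbours; in both panels Treg-ablated replicate 1 is the highest library for the metallothionein.

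Marker sums of other cell types were set beside the metallothioneins, and they did not all go the same way after ablation. The 10 T cell markers summed to 47.79 and 51.44 CPM in the ablated libraries and 13.37 to 17.38 CPM in the controls, and the 7 B cell markers to 56.3 and 71.21 CPM against 15.78 to 19.02 CPM. None of these 17 markers was at 0 over the 5 libraries. The macrophage markers summed to 273.1 and 313.5 CPM after ablation and 487.9 to 512.1 CPM in controls, and 9 of 13 fell, against 12.3% of all genes tested. The 12 fibroblast markers summed to 19990 and 22430 CPM after ablation and 21440 to 25360 CPM in controls. Of these 7 fell and 1, Dcn, rose (66.7% called, against 25.8% of all genes), with a median log2 fold change of −0.42. The part of these cell types in the metallothionein values was not tested. Ifng had 3.404 and 2.791 CPM after ablation and 0.7512 to 0.836 CPM in controls (log2 fold change 1.96 ± 0.251, adjusted p = 0.000791).

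Within each group, Mt1 and Mt2 followed the order of short transcripts. The median log2 deviation from the group mean of 668 genes with exons under 1 kb was 0.10 in ablated replicate 1 and −0.10 in ablated replicate 2, and −0.10, −0.0074 and 0.09 in control replicates 1, 2 and 3. For Mt1 the deviations were 0.16 and −0.16, and −0.13, 0.00023 and 0.13. Those of the ablated libraries are equal and opposite by construction. Between the groups these short genes had a median log2 fold change of −0.0062. With an offset on gene length, the log2 fold changes of Mt1 and Mt2 were 0.78 ± 0.0717 and 1.26 ± 0.0732, against 0.81 ± 0.107 and 1.29 ± 0.104 without it. The part of transcript length in these values was not tested further.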

How the data were processed

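The 5 genes and the gene lists were chosen with earlier results of these data known. The deposited values are raw counts: per the file headers, featureCounts 1.6.2 summed fragments over the exons of each gene (GRCm38, a filtered Ensembl set) with no strand option, although the library kit is stranded. Upstream tools in the submitters' processing notes are Subread 1.6.2, Trimmomatic 0.33, FastQC 0.11.5 and DESeq2 1.16.1. Sample titles gave the groups and the replicate numbers; file names number the ablated libraries differently. Symbols were joined by Ensembl identifier (46488 of 46983 genes), and all 162 listed symbols were found.

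After filterByExpr and TMM scaling, edgeR 4.0.16 (R 4.3.3) fitted the quasi-likelihood model without a replicate block, with Benjamini-Hochberg adjustment over 14580 genes and a threshold of 0.05. Each SE is |log2 fold change| over √F. CPM use TMM-scaled library sizes. Named genes were the 5 members, the zinc transporters, up to 4 called genes per other list with the smallest p, fixed markers and the nearest genes. Alternatives were RLE and library-size scaling, a filter of 1 count in any library, DESeq2 1.42.0, limma-voom (limma 3.58.1), the replicate block, lowess offsets on GC content and gene length, and leaving out each library. Where 1 ablated library remains, its spread is taken to equal that of the controls.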

Additional observations from a re-analysis of the deposited data

How the results depend on the processing

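Of the values of the 5 genes, 0 changed direction under any of the 13 alternatives. Leaving out 1 library at a time gave log2 fold changes from 0.63 to 0.96 for Mt1 and from 1.10 to 1.46 for Mt2, the lowest in each case without ablated replicate 1. The GC offset moved Slc39a14 from −0.18 to −0.092. Levels per kilobase of the 5 genes and macrophage and fibroblast marker sums in controls were recomputed under the other scalings and without each control, and moved by less than 1 SD. Over all genes, edgeR called 3758, and 1366 to 3224 when 1 library was left out, the lowest without control replicate 2. Such leave-one-out counts ran from 2 to 5 for the zinc transporters, 0 to 1 for the MTF-1 list, 3 to 8 for iron handling, 3 to 7 for the IL-6 and STAT3 list and 1 to 5 for the stress list. DESeq2 called 3 stress genes, the length offset 9, and both offsets 12 IL-6 and STAT3 genes. The cause was not tested.

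With the replicate number as a block, 2412 genes were called in all, 3 zinc transporters, 2 stress genes and 0 MTF-1 genes (1 at an unadjusted p under 0.05; 1 by edgeR without the block). Mt1 and Mt2 had blocked log2 fold changes of 0.86 and 1.32. Nothing in the labels pairs libraries by number: across 10020 genes the deviations from the group means had r = −0.57 between the libraries numbered 1 and 0.0066 between those numbered 2. Ablated replicate 2, whose deviations mirror those of ablated replicate 1, had r = 0.57 with control replicate 1. The block used the numbers in the sample titles, which differ from those in the file names for the ablated libraries. Other numberings were not fitted. Depth limits Slc30a1, with 12 to 40 counts per library, and Mt3 and Mt4, at or near 0.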

Other observations

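The zinc-binding S100 genes, whose products form calprotectin, were close to the limit of detection in all 5 libraries. S100a8 had 0.9457 and 0.528 CPM after ablation and 0.2687, 0.8013 and 0.2787 CPM in controls (log2 fold change 0.63 ± 0.53, adjusted p = 0.41), and S100a9 had 0.4031 to 0.6034 CPM and was too low to test.

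The deviations of single libraries from their group means were correlated across the groups for some pairs of libraries. Across 10020 genes, which are not independent replicates, those of Treg-ablated replicate 1 had r = 0.54 with control replicate 3. The r was −0.57 with control replicate 1 and −0.0066 with control replicate 2. Deviations within a group cancel out by construction, so these r values are not independent of each other. Mt1 and Mt2 were highest in Treg-ablated replicate 1 and control replicate 3 of their groups.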
